A study of Mus musculus with 2 samples.

Results

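The 10 genes described here encode transcription factors of embryonic mesenchyme: Prrx1, Prrx2, Twist1, Twist2, Meox1, Meox2, Msx1, Msx2, Alx1 and Alx4. They were chosen by name, as members of 5 paralogue families, and not by their values. They are 10 of the 21937 gene features in the deposited matrices, and each symbol matched 1 feature. The question was in which annotated cell types and suspensions of the E11.5 mouse embryo these genes were detected, which of them were found in the same cells, and whether they differed between generations.

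Mesenchyme is the loose embryonic tissue from which bone, cartilage, dermis and muscle connective tissue arise, and it comes from the mesoderm and, in the head, from the neural crest. Twist1 and Twist2 are basic helix-loop-helix proteins that bind DNA at E-boxes, usually as dimers with E proteins, while Id proteins hold E proteins in inactive dimers. The other 8 genes encode homeodomain proteins, which recognise short AT-rich sites. Prrx1 and Prrx2 are used in limb and craniofacial mesenchyme, Meox1 and Meox2 in the somites, Msx1 and Msx2 in tissue that receives BMP signals, such as the limb tip, facial processes, roof plate and surface ectoderm, and Alx1 and Alx4 in facial and limb mesenchyme.

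Cells came from E11.5 embryos made with C57BL/6J gametes that carried a piggyBac transgene in which the broadly active CAG promoter drives EGFP linked to a DNA barcode, and no suspension without a transgene was part of the series. F0_8 and F0_9 were founder embryos, F1_1 came from an F1 embryo, and F1_mix combined cells of 2 F1 embryos, so each generation was represented by 2 suspensions. Founders were made by electroporating eggs with mRNA of the piggyBac transposase, the enzyme that inserts the transgene, and then injecting the transgene DNA. The 4 suspensions were tagged with their own oligo and run as 1 droplet library of unique molecular identifiers (UMIs), each of which stands for 1 captured transcript. The 5678 annotated cells held 1310 to 1599 cells and 16052917 to 19160116 gene UMIs per suspension, and 0 barcodes were shared between suspensions.

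The authors had sorted the cells into 16 annotated types, of which 12 were deep (median 10898.5 to 29076 gene UMIs per cell) and 4 were shallow (Endodermal Progenitor, Foregut, Hepatocyte and Midgut, 721.5 to 1674). The types named for mesenchyme are Mesodermal Progenitor (496 cells), Gut Mesenchyme/Amniotic Mesoderm (674 cells) and Chondrocyte (296 cells), and Myoblast/Cardiomyocyte (644 cells) is a further deep mesodermal type. Their names were checked against markers. The summed level of Pdgfra, Col1a1, Col1a2 and Col3a1 was 11.1, 14.6, 26.4 and 5.63 UMIs per 10000 gene UMIs in these types in that order. In Chondrocyte the cartilage genes Acan and Matn1 were nearly absent (0.0456 and 0.0114), and Sox9 and Col2a1 were no higher (2.37 and 2.78) than in Gut Mesenchyme/Amniotic Mesoderm (3.27 and 3.27). The gut genes Foxf1, Barx1, Nkx2-3 and Hand1 summed to 0.807 to 2.36 over the suspensions of Gut Mesenchyme/Amniotic Mesoderm, which overlapped with 0.864 to 1.55 in Mesodermal Progenitor. Myoblast/Cardiomyocyte held the skeletal muscle genes Myog (1.43) and Myod1 (0.539) and the cardiac troponin Tnnt2 (0.273), with the heart myosin Myh6 at 0.00161. Of its suspensions, F0_8 had the highest sum of the 4 muscle markers (7.15, against 0.987 to 2.41) and F0_9 held 48.5 of erythroid genes, against 0.434 to 0.463 in the others. In cells annotated as Hepatocyte, the liver genes Alb, Afp, Ttr and Apoa1 together gave 6 UMIs, with Afp at 0, while the 4 mesenchyme genes summed to 11.8 to 13.8 over the suspensions. The names of the types are kept below as the authors gave them. Cells were clustered from the same counts, so types are described and not tested against each other, and the intervals given cover counting error only.

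The genes lie on 7 chromosomes of GRCm38, with positions from the RefSeq annotation of that build. Prrx1 (chr1:163245119-163315145, 70.0 kb) and Twist2 (chr1:91801461-91848034, 46.6 kb) share chromosome 1. Prrx2 (chr2:30845064-30881251, 36.2 kb) and Alx4 (chr2:93642434-93681341, 38.9 kb) share chromosome 2, and Twist1 (chr12:33957671-33959831, 2.16 kb) and Meox2 (chr12:37108540-37179534, 71.0 kb) share chromosome 12. The others are Msx1 (chr5:37820491-37824585, 4.10 kb), Alx1 (chr10:103007847-103029549, 21.7 kb), Meox1 (chr11:101877510-101894354, 16.8 kb) and Msx2 (chr13:53466881-53472780, 5.90 kb). The paralogues of each pair lie on different chromosomes. The genes range from 2.16 to 71.0 kb, and length is set beside the levels of the shallow cells further on.

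The sequences upstream of Msx1, Msx2 and Meox2 are shown because, relative to the number if genes were independent, Msx1 and Msx2 had the highest co-detection of the 45 pairs in the 3 mesenchymal types, and Meox2 with Msx1 the lowest. A promoter was found in RefSeq (GRCm38.p6) for 7 of the 10 genes. Each line gives the 250 bases before the annotated start, 5′ to 3′ on the gene's strand, with matches to TAAT on either strand (the core that many homeodomains recognise) or CANNTG (the E-box) in capitals. Msx1 is read from the minus strand of chr5:37824586-37824835, Msx2 from the minus strand of chr13:53472781-53473030, and Meox2 from the plus strand of chr12:37108290-37108539.
Msx1: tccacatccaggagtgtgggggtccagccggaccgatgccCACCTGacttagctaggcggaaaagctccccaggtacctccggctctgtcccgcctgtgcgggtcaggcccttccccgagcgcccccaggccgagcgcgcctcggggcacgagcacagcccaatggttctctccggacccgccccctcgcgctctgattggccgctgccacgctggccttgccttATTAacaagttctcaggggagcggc
Msx2: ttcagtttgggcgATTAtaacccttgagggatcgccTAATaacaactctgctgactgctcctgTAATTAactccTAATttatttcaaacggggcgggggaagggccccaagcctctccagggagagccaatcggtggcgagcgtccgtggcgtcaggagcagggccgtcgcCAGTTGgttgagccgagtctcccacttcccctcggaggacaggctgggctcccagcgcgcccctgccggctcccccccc
Meox2: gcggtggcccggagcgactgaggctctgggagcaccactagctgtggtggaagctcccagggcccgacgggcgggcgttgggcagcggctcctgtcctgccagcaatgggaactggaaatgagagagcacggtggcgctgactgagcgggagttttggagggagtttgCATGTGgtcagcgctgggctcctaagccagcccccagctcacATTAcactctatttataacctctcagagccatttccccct
The Msx2 window held 5 TAAT matches, of which 2 overlap as a palindrome, and 1 E-box. The windows of Msx1 and Meox2 each held 1 TAAT match and 1 E-box. Over 32851 windows of the same length, 54.9% held TAAT and 66.2% held CANNTG, so the presence of either is common. A match is only a string of letters in this window.

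All 10 genes were concentrated in mesodermal cells. The 4 deep mesodermal types, which held 37.2% of the cells and 50.1% of the gene UMIs, took 97.5% of the Twist1 UMIs, 96.0% of Meox1, 95.7% of Prrx2, 94.7% of Alx1, 94.2% of Twist2, 93.5% of Alx4, 92.7% of Meox2 and 92.0% of Prrx1. The Msx genes were spread more widely, with 82.7% for Msx1 and 79.97% for Msx2. Compared with the pooled level in neurons and red cells (CNS Neuron, Neuroectoderm/Glia, Erythroblast and Erythrocyte), the pooled level in the 4 mesodermal types was higher by a ratio of 33.0 for Msx1 and 38.0 for Msx2, and of 54.6 to 166 for the other 8 genes. After each cell was thinned to 5000 UMIs, 76.4% of Mesodermal Progenitor cells had a Twist1 UMI (95% interval 72.4% to 80.0%) and 65.5% had a Prrx1 UMI (61.1% to 69.6%). In CNS Neuron cells, which should lack both, the shares were 2.14% and 3.50% at the same depth (medians before thinning 18842 and 10898.5 UMIs). A median of 3 of the 10 genes was detected per thinned cell in each of the 4 mesodermal types, and 0 in CNS Neuron.

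**Figure D1:**
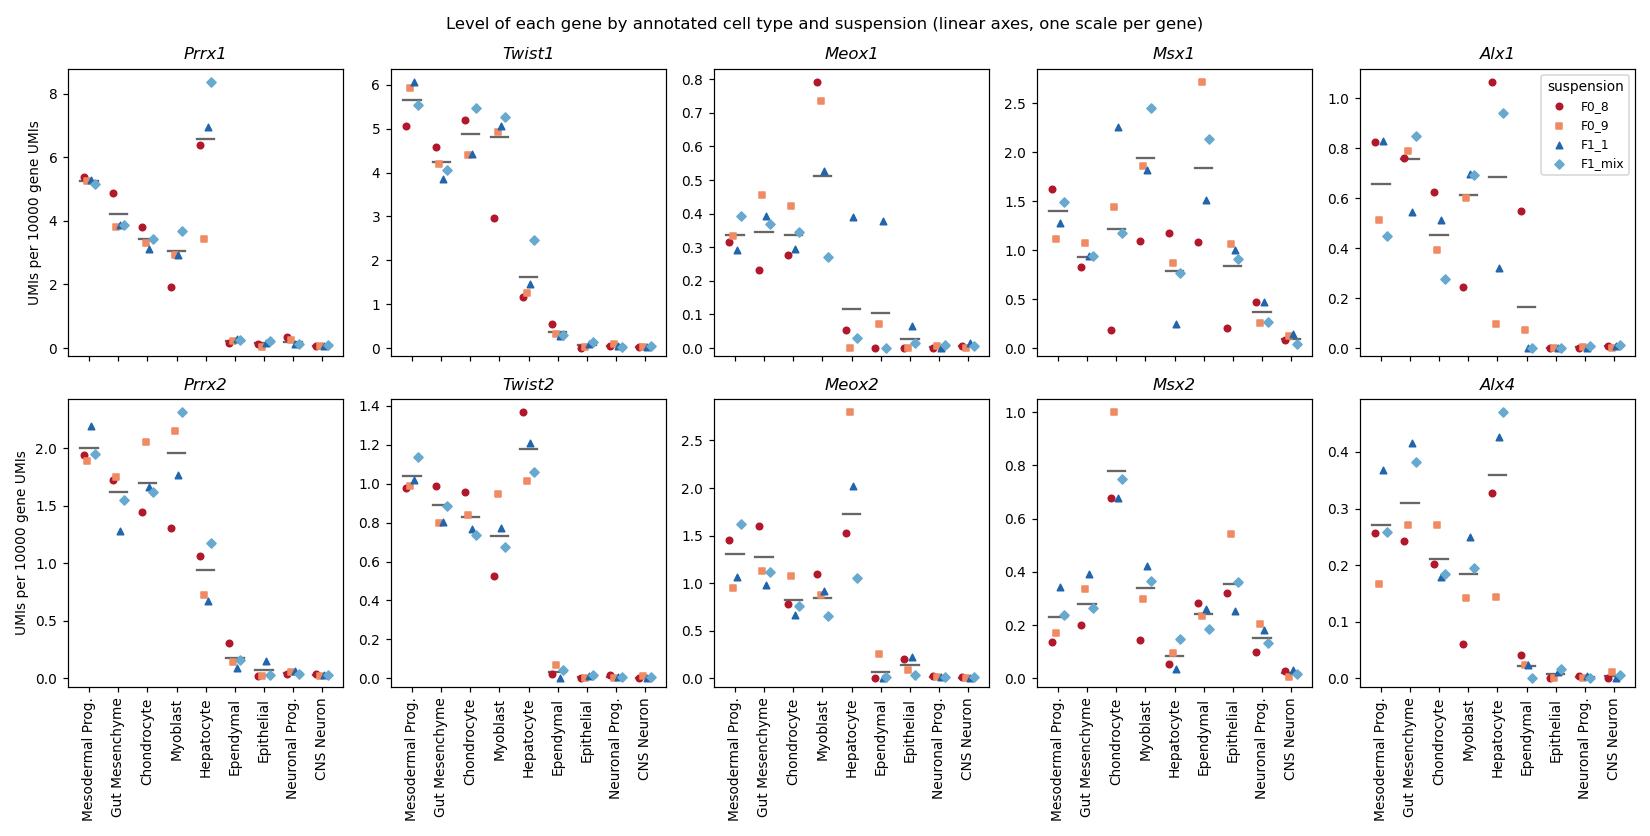
Level of each gene (UMIs per 10000 gene UMIs, linear axes from 0, each gene on its own scale) in 9 annotated types; coloured points are the 4 suspensions and grey bars the pooled level. Prrx1 and Twist1 are high in the 4 mesodermal types and near 0 in neurons, Prrx1 but not Twist1 is also high in Hepatocyte, and Msx1 and Msx2 extend to Ependymal, Epithelial and Neuronal Progenitor cells.

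Prrx1, a homeodomain factor of limb and facial mesenchyme, was steady between suspensions where it was highest among deep types. In Mesodermal Progenitor its level was 5.38 (F0_8) and 5.26 (F0_9) in founders and 5.27 (F1_1) and 5.16 (F1_mix) in F1. In Gut Mesenchyme/Amniotic Mesoderm the 4 levels were 4.87, 3.79, 3.88 and 3.86 in the same order. F0_8 alone stood high there, yet all 4 lay below Mesodermal Progenitor. In Chondrocyte the levels were 3.81, 3.32, 3.10 and 3.44, and in Myoblast/Cardiomyocyte 1.92, 2.92, 2.93 and 3.69. The range of Chondrocyte overlapped with both of its neighbours in this order, although within each suspension it lay below Gut Mesenchyme/Amniotic Mesoderm, while every suspension of Gut Mesenchyme/Amniotic Mesoderm lay above those of Myoblast/Cardiomyocyte. Prrx2, its paralogue, ran from 1.89 to 2.19 in Mesodermal Progenitor, 1.31 to 2.31 in Myoblast/Cardiomyocyte, 1.44 to 2.05 in Chondrocyte and 1.28 to 1.75 in Gut Mesenchyme/Amniotic Mesoderm. Only the first and the last of these ranges were apart.

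Twist1, needed for cranial mesenchyme and limb outgrowth, was detected most in Mesodermal Progenitor, with 5.07 (F0_8) and 5.94 (F0_9) in founders and 6.07 (F1_1) and 5.55 (F1_mix) in F1. Gut Mesenchyme/Amniotic Mesoderm had 4.57, 4.21, 3.85 and 4.07, all below. Chondrocyte (4.39 to 5.46) overlapped with both. In Myoblast/Cardiomyocyte the level was 2.97 in F0_8 and 4.94, 5.05 and 5.26 in the other suspensions, and F0_8 was also the suspension with the most muscle marker UMIs in that type. Whether this had a part in the lower level was not tested. Twist2, which acts in dermis and bone precursors, ranged from 0.977 to 1.14 in Mesodermal Progenitor, above Chondrocyte (0.736 to 0.955) and Myoblast/Cardiomyocyte (0.524 to 0.948) in every suspension and overlapping with Gut Mesenchyme/Amniotic Mesoderm (0.798 to 0.989).

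The somitic factors Meox1 and Meox2 had different leading types. Meox1 was highest in Myoblast/Cardiomyocyte, with 0.792 (F0_8) and 0.736 (F0_9) in founders and 0.528 (F1_1) and 0.272 (F1_mix) in F1. The founder suspensions stood above the F1 suspensions, but the range reached into those of the 3 mesenchymal types (0.231 to 0.457). Meox2 led in Mesodermal Progenitor (0.946 to 1.62) and Gut Mesenchyme/Amniotic Mesoderm (0.981 to 1.60) among deep types, and its ranges overlapped with those of Chondrocyte (0.666 to 1.08) and Myoblast/Cardiomyocyte (0.651 to 1.09).

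Msx1 and Msx2, repressors that respond to BMP signals, had patterns of their own. Msx2 was highest in Chondrocyte, with 0.679 (F0_8) and 1.0 (F0_9) in founders and 0.678 (F1_1) and 0.748 (F1_mix) in F1. Every other type lay below these values, led by Epithelial Cell (0.255 to 0.541). Msx1 in Chondrocyte was 0.180 in F0_8 (17 UMIs), against 1.43 in F0_9 (132 UMIs), 2.25 in F1_1 (176 UMIs) and 1.17 in F1_mix (102 UMIs). One founder thus lay far below the other 3 suspensions for Msx1, while its Msx2 level did not. Msx1 was higher in Myoblast/Cardiomyocyte (1.09 to 2.45) and Ependymal Cell (1.08 to 2.72) than in Gut Mesenchyme/Amniotic Mesoderm (0.825 to 1.07) in every suspension.

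The Alx genes, which pattern facial mesenchyme, were detected in all 4 mesodermal types with wide spread. Alx1 was 0.761 (F0_8) and 0.789 (F0_9) in founders and 0.544 (F1_1) and 0.850 (F1_mix) in F1 in Gut Mesenchyme/Amniotic Mesoderm, and 0.276 to 0.830 over the suspensions of Mesodermal Progenitor and Chondrocyte. Alx4 was 0.243 to 0.416 in Gut Mesenchyme/Amniotic Mesoderm, 0.167 to 0.368 in Mesodermal Progenitor, 0.179 to 0.272 in Chondrocyte and 0.0614 to 0.250 in Myoblast/Cardiomyocyte. All of these ranges overlapped. Compared within each suspension, Alx1 was lower in Chondrocyte than in Mesodermal Progenitor and Gut Mesenchyme/Amniotic Mesoderm in all 4, and Alx4 was lower in Myoblast/Cardiomyocyte than in the same pair of types in all 4.

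Ranges that do not overlap over the 4 suspensions were counted and set against all genes with 10 or more UMIs in the 2 types. Prrx1, Prrx2, Twist1 and Msx1 lay wholly above in Mesodermal Progenitor against Gut Mesenchyme/Amniotic Mesoderm (4 of 10, where 10.3% of all genes did) and 0 of 10 lay below (13.7% of all genes). Against Chondrocyte, Mesodermal Progenitor was above for Prrx1 and Twist2 (2 of 10, background 19.9%) and below for Msx2 (1 of 10, background 14.1%). Between Gut Mesenchyme/Amniotic Mesoderm and Chondrocyte, 0 of 10 genes were higher in the first (background 17.2%) and Msx2 was higher in the second (1 of 10, background 9.21%). Against Myoblast/Cardiomyocyte, Mesodermal Progenitor was above for Prrx1 and Twist2 (2 of 10, background 20.9%) and below for 0 of 10 (background 9.63%). With a suspension left out, ranges separate more easily for any gene. Mesodermal Progenitor and Chondrocyte were then apart for 6 of the 10 genes without F0_9. Gut Mesenchyme/Amniotic Mesoderm and Chondrocyte were apart for 5 without F0_8, 4 without F0_9 and 3 without F1_1. The share of all genes is not given for these settings, so these counts have no background to be read against.

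The Msx genes were also detected in deep types outside the mesoderm. In Ependymal Cell, Msx1 was 1.08 (F0_8) and 2.72 (F0_9) in founders and 1.51 (F1_1) and 2.13 (F1_mix) in F1, and 25.9% of the thinned cells had a UMI (18.8% to 34.2%), against 8.89% for Prrx1 (4.68% to 15%) in the same cells and 3.50% for Msx1 in CNS Neuron. This type also held 13.4 of the liver markers, in suspensions that ranged from 0.0205 to 31.5, so its name does not describe all of its cells. In Epithelial Cell the level of Msx1 was 0.201 in F0_8 and 0.906 to 1.06 in the others, and 12.7% of the thinned cells had an Msx2 UMI. In Neuronal Progenitor, Msx1 ranged from 0.256 to 0.475 and Msx2 from 0.0991 to 0.206. In the 122 Neuronal Progenitor cells with an Msx1 or Msx2 UMI, 8 dorsal neural tube genes (Pax3, Pax7, Lmx1a, Wnt1, Wnt3a, Zic1, Zic2 and Zic4) summed to 12.8, against 4.44 in the 475 cells without. The ratio was 3.72 (F0_8) and 2.69 (F0_9) in founders and 3.19 (F1_1) and 2.41 (F1_mix) in F1. For 6 ventral genes (Nkx6-1, Nkx6-2, Nkx2-2, Olig2, Foxa2 and Shh) the sums were 0.413 and 0.972, with ratios of 0.235 to 0.721. Cells with Msx were thus higher in the dorsal list and lower in the ventral list in every suspension. Both lists were chosen after the Msx levels had been seen, and the cells with a UMI were slightly deeper (median 14768 against 13146 UMIs).

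Within the 3 mesenchymal types, the genes fell into combinations. Over 1457 cells thinned to 5000 UMIs, the number of cells with both genes of a pair was divided by the number that would result if the genes were independent within each type and suspension. Msx1 and Msx2 were found together in 63 cells, where independence gives 17.2, a ratio of 3.66 that ranged from 2.94 to 4.70 over the suspensions. Alx1 and Alx4 were found together in 69 cells against 20.4 (ratio 3.38, 2.64 to 4.20). Over the 6 pairs among Msx1, Msx2, Alx1 and Alx4, the ratio ran from 2.42 to 3.66, and it was above 1 in all 4 suspensions for 5 pairs. The exception was Msx2 with Alx4, at 0.991 in F0_8.

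The Meox genes ran the other way. Meox2 was found with Msx1 in 9 cells against 45.5 (ratio 0.198), with the 4 suspensions at 0.0801, 0.0875, 0.406 and 0.255. With Alx1 it was found in 8 cells against 36.7 (0.218) and with Msx2 in 6 against 24.1 (0.248). Meox1 was found with Msx1 in 7 cells against 21.4 (0.326). Over the 8 pairs of a Meox with an Msx or Alx gene the ratio was 0.198 to 0.860, and 6 pairs were below 1 in all 4 suspensions. The exceptions were Meox1 with Alx1 (0.860, with 1.28 in F0_8 and 1.11 in F1_mix) and Meox1 with Alx4 (0.804, with 1.29 in F0_9). At 2000 UMIs per cell, where the numbers are smaller, the 8 ratios were 0.261 to 0.590 and 3 pairs were below 1 in all 4 suspensions, and Meox2 with Msx1 was 1.07 in F1_1. Meox1 and Meox2 were found together in 48 cells against 29.6 (1.62, 1.24 to 1.81). In Myoblast/Cardiomyocyte, where Msx1 and Msx2 gave 2.80 and Meox1 and Meox2 gave 1.88, Meox2 with Msx1 gave 0.428 and Meox1 with Msx1 gave 0.109.

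The 6 pairs among Prrx1, Prrx2, Twist1 and Twist2 had ratios of 0.959 to 1.16. These genes were found in many cells, so their ratios could not exceed 1.47 to 2.12, whereas the limit for the 6 Msx and Alx pairs was 6.10 to 7.63. Prrx2 was found with each of Msx1, Msx2, Alx1 and Alx4 more often than independence gives (1.60, 1.56, 1.41 and 1.48), and these were above 1 in every suspension. Twist2 was not, with ratios of 0.745 to 0.947 for the same 4 genes. In 3.43% of Mesodermal Progenitor cells, 8.53% of Gut Mesenchyme/Amniotic Mesoderm, 6.46% of Chondrocyte and 14.1% of Myoblast/Cardiomyocyte cells at 5000 UMIs, 0 of the 10 genes were detected.

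**Figure D2:**
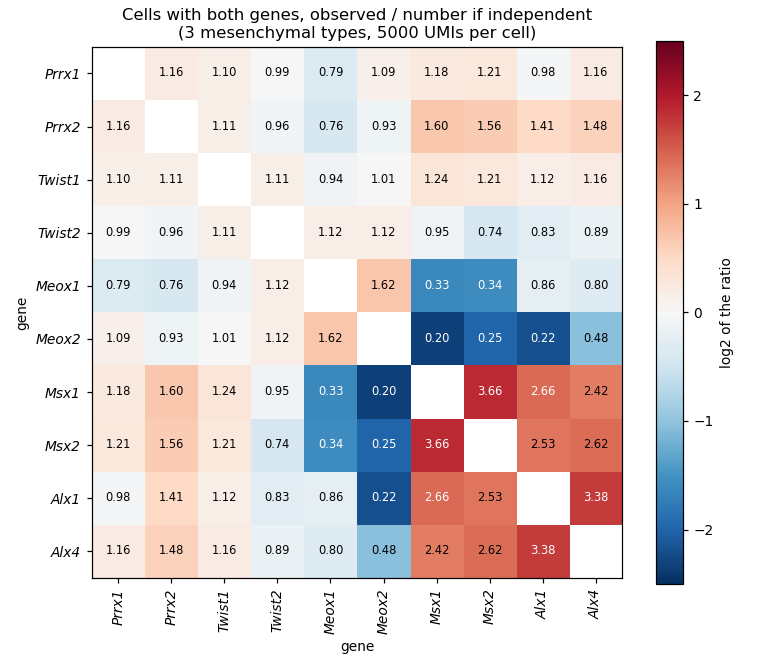
Cells with both genes of a pair divided by the number if independent within type and suspension, for the 3 mesenchymal types at 5000 UMIs per cell; colour is log2 of the ratio and each field prints the ratio. The block of Msx1, Msx2, Alx1 and Alx4 lies between 2.42 and 3.66, and the fields of Meox2 with these genes lie between 0.198 and 0.483.

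These combinations came with different positional genes, which mark where along the body a cell lay. In the 431 mesenchymal cells with an Alx1 or Alx4 UMI, 11 posterior Hox genes (Hoxa9 to Hoxa13, Hoxc9, Hoxc10 and Hoxd9 to Hoxd13), used in the caudal trunk and distal limb, summed to 1.92, against 4.99 in the 1035 cells without. Cells with Alx were lower in F0_8 (2.84 against 5.94), F0_9 (1.81 against 5.41), F1_1 (1.27 against 3.90) and F1_mix (1.68 against 4.28). The ratio was 0.408 within Mesodermal Progenitor, 0.359 within Gut Mesenchyme/Amniotic Mesoderm and 0.307 within Chondrocyte. The 9 cranial neural crest genes, such as Foxd1, Dlx5 and Tfap2b, summed to 3.89 in cells with Alx and 2.40 in those without, with ratios of 2.58, 1.77, 1.10 and 1.38 over the suspensions, but the ratio in Chondrocyte alone was 0.916. The somite list had no common direction (ratios 0.714 to 1.33). The 9 limb bud genes were lower with Alx in each suspension (ratios 0.731 to 0.839). Anterior Hox genes were also lower when pooled (2.59 against 3.40), with ratios of 0.688, 0.465, 0.9998 and 0.762.

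Cells with a Meox1 or Meox2 UMI (566, against 900 without) were higher in 8 somite and sclerotome genes, such as Tbx18, Pax1 and Pax3 (2.94 against 2.13, ratios 1.16 to 1.75 over the suspensions), and in 12 anterior Hox genes, such as Hoxa5 and Hoxb3 (3.96 against 2.59, ratios 1.13 to 1.98). Posterior Hox genes had no common direction (pooled 4.49 against 3.74, ratios 0.817 to 1.51). Cells with Meox were also higher in limb bud genes (4.45 against 3.18, ratios 1.12 to 1.85) and lower in cranial neural crest genes (2.51 against 3.09, ratios 0.673 to 0.988). Cells with an Msx1 or Msx2 UMI (384, against 1082 without) were higher in the cranial list (3.73 against 2.51, ratios 1.33 to 1.76) and lower in anterior Hox genes (2.37 against 3.46, ratios 0.397 to 0.919). Their limb bud, posterior Hox and somite sums had no common direction over the suspensions (ratios 0.961 to 1.30, 0.657 to 1.13 and 0.544 to 1.16). Median depths with and without a UMI were 14810 and 14057 for Alx, 14819.5 and 13973 for Meox, and 15478 and 13973 for Msx, and the part of depth in these ratios was not tested. Pax3 and Foxd1 are also expressed outside the neural crest, and Pax3 is in both the somite and the cranial list. They had the highest levels of the cranial list over the 3 mesenchymal types (1.42 for Foxd1 and 0.442 for Pax3), so its sums weigh them most.

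**Figure D3:**
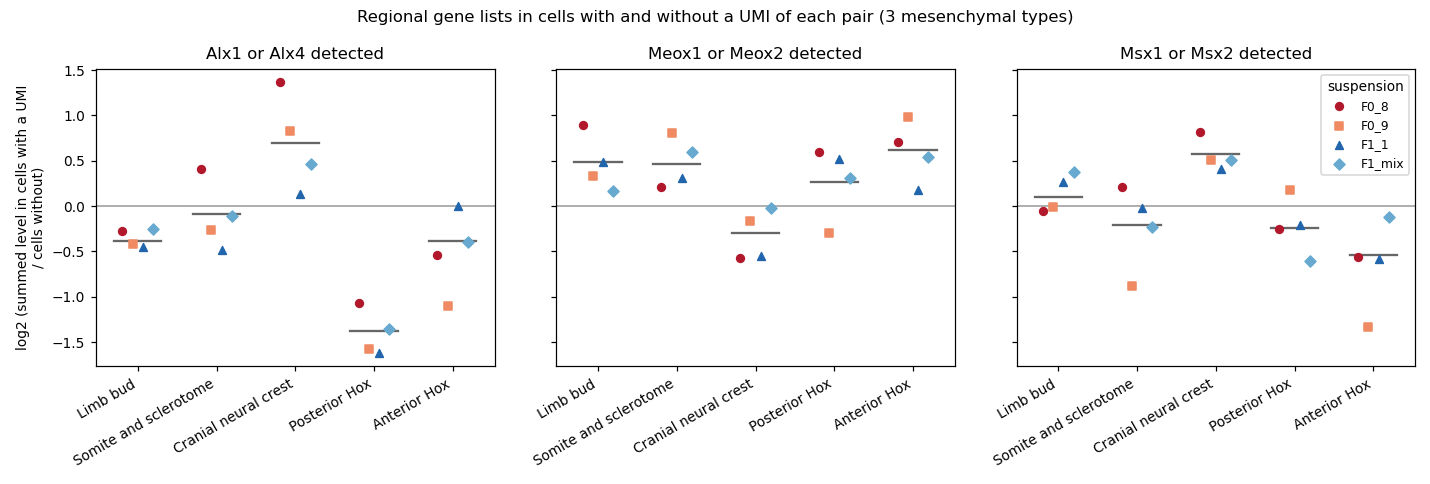
Summed level of 5 regional gene lists in cells with a UMI of each paralogue pair divided by that in cells without, as log2, in the 3 mesenchymal types; points are suspensions and grey bars the pooled value. The posterior Hox list lies below 0 in all 4 suspensions for cells with Alx1 or Alx4 (ratios 0.326 to 0.478).

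Across the 12 deep types, the genes most like each of the 10 were sought among 13120 genes by Pearson correlation of log2(level + 0.1). The points share 1 library and a contrast of mesoderm with other tissue, so values near 1 are common. By Spearman correlation only 2 of the 30 neighbours stayed among the nearest 3 and 4 among the nearest 10, so the names below hold for the Pearson measure. Prrx2 and Twist1 were each other's nearest gene (0.998). Prrx1 was most like Prrx2 (0.988), Twist2 (0.988) and Twist1 (0.986). Twist1 was followed by the collagen Col26a1 (0.991) and the E-cadherin repressor Snai1 (0.987), and Twist2 and Alx4 by the collagen receptor Ddr2 (0.994 and 0.996). Meox1 was most like Twist1 (0.987), Prrx2 (0.986) and Alx1 (0.983), and Meox2 most like the tendon factor Mkx (0.988) and the growth factor receptor Pdgfra (0.983). Alx1 was led by Hpse2 and Saa2 (0.985 each), and Alx4 also had Twist2 (0.993) and Saa2 (0.990). The Msx genes had lower values and other neighbours, namely Cryz (0.962), Atoh8 (0.960) and Scara3 (0.956) for Msx1 and Echdc2 (0.953), the Wnt inhibitor Dkk1 (0.945) and Scara3 (0.944) for Msx2.

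The partners of the Twist proteins were detected in the same cell types. In Mesodermal Progenitor the E proteins Tcf4, Tcf12 and Tcf3 had levels of 9.26, 6.18 and 2.40, and Id3, Id2, Id1 and Id4 had 5.68, 4.03, 3.24 and 0.107. CNS Neuron cells had a higher sum of E proteins (22.9, against 17.8) and a lower sum of Id genes (2.16, against 13.1), with the ranges over the suspensions apart for both. Of the factors of epithelial-mesenchymal transition, Zeb1 and Zeb2 were also high in CNS Neuron (4.43 and 3.41, against 1.60 and 1.35 in Mesodermal Progenitor). Snai2 and Snai1 were not (0.00491 and 0.0180, against 0.501 and 0.388). Among other mesenchymal regulators of high level were the homeodomain cofactors Meis2 and Meis1 (7.70 and 3.55 over the 3 mesenchymal types) and the forkhead factor Foxp2 (5.05).

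In cells annotated as Hepatocyte the 10 genes did not keep their proportions. Prrx1 reached 6.39 (F0_8) and 3.42 (F0_9) in founders and 6.96 (F1_1) and 8.37 (F1_mix) in F1. Only F0_9 lay below Mesodermal Progenitor, and the pooled level, 6.57, was the highest of the 16 types. Twist1 in the same cells was 1.17, 1.25, 1.46 and 2.47, below every suspension of Mesodermal Progenitor. The number of Prrx1 UMIs per Twist1 UMI was 4.05 in Hepatocyte (5.44, 2.73, 4.78 and 3.39 by suspension) and 0.931 in Mesodermal Progenitor (0.868 to 1.06), 0.991 in Gut Mesenchyme/Amniotic Mesoderm, 0.703 in Chondrocyte and 0.635 in Myoblast/Cardiomyocyte. The ranges of Hepatocyte lay wholly above Mesodermal Progenitor for 0 of the 10 genes, where 24.8% of all genes did, and wholly below for Prrx2 and Twist1 (2 of 10, background 24.5%).

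Gene length moved with these differences. Outside mitochondrial genes, which took a median of 23.0% of the UMIs of Hepatocyte cells and 2.29% in Mesodermal Progenitor, the log2 ratio of Hepatocyte to Mesodermal Progenitor was -1.55 for Twist1 (2.16 kb), -0.58 for Msx1 (4.10 kb), 0.31 for Alx1 (21.7 kb), 0.66 for Alx4 (38.9 kb), 0.43 for Twist2 (46.6 kb), 0.57 for Prrx1 (70.0 kb) and 0.66 for Meox2 (71.0 kb). Over all 8953 genes with 100 or more UMIs, the median was -1.28 for genes under 10 kb, -0.19 for 10 to 30 kb, 0.75 for 30 to 100 kb and 1.49 above 100 kb. These are pooled values, and the suspensions varied. Alx1 was 0.64, -2.12, -1.10 and 1.25, Meox2 was 0.34, 1.86, 1.19 and -0.44, and Prrx1 was 0.52, -0.33, 0.67 and 0.88, with the founders F0_8 and F0_9 given before F1_1 and F1_mix. Twist1 (-1.95 to -0.99), Prrx2 (-1.43 to -0.55), Msx1 (-2.09 to -0.07) and Msx2 (-3.01 to -0.52) were below 0 in all 4, and Twist2 (0.07 to 0.75) and Alx4 (0.08 to 1.04) were above 0 in all 4. Pooled, Prrx2 (36.2 kb, -0.83) stood below the 10th percentile of its length class (-0.32). Meox1 and Msx2 rested on 14 and 10 UMIs. In the deposited counts, 2.76% of Hepatocyte cells and 99.6% of Mesodermal Progenitor cells had under 5% mitochondrial UMIs, a limit that the methods name for keeping a cell. In the 15 Hepatocyte cells under it, the pooled levels were 3.18 for Msx1, 2.40 for Alx1, 3.09 for Twist1 and 0.859 for Twist2, so Msx1 was then above and Twist2 below Mesodermal Progenitor, as were Meox2 (1.20) and Alx4 (0.258) below it. Msx1 was at 9.25 in the 5 such cells of F0_8 and listed at 0 in F0_9 and F1_1. Length, depth and mitochondrial share moved together here, and their part in the levels was not tested.

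**Figure D4:**
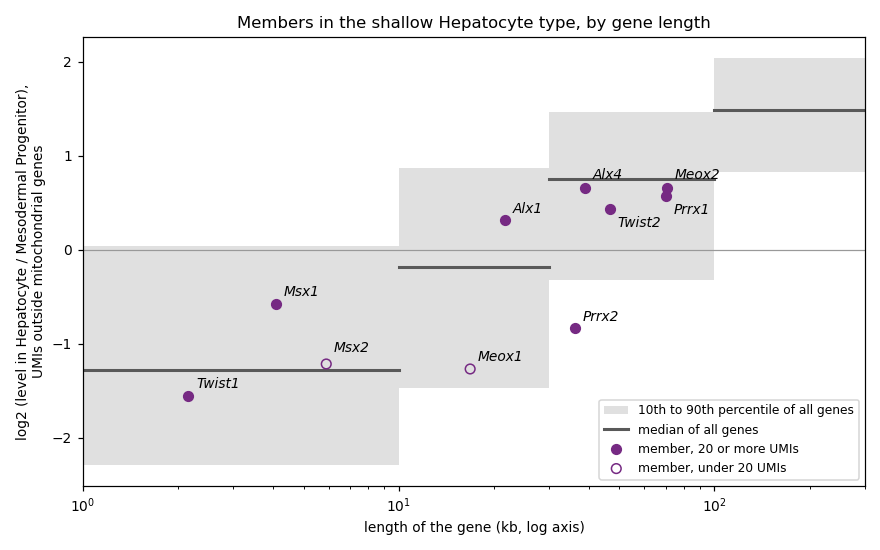
Log2 ratio of the level in Hepatocyte to that in Mesodermal Progenitor (UMIs outside mitochondrial genes) against gene length in kb on a log axis; grey bands span the 10th to 90th percentile and lines the median of all genes in each length class. Twist1 lies at -1.55 and Prrx1 at 0.57, each on the side of 0 of the median of its length class, and Prrx2 lies below the band of its class.

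Free RNA was read from 53821 droplets of 100 to 300 UMIs that were in none of the suspension matrices. Their Prrx1 level was 3.08 (2.95 to 3.20), below the 6.57 of Hepatocyte (786 UMIs) and above the levels of Endodermal Progenitor (0.992), Foregut (0.718) and Midgut (0.322). Twist1 was at 1.42 in the droplets and 1.62 in Hepatocyte. In droplets of under 100 UMIs, Prrx1 was lower (1.38) and Twist1 higher (1.71, above Hepatocyte), so the order of Twist1 turned with the droplets used. The Prrx1 to Twist1 ratio was 2.17 in these droplets and 0.808 in droplets of under 100 UMIs. At 500 UMIs per cell, 18% of Hepatocyte cells (14.9% to 21.5%) and 21.8% of Mesodermal Progenitor cells (18.2% to 25.7%) had a Prrx1 UMI, against 0 of 532 CNS Neuron cells (up to 0.691%) and 1.20% of Midgut, 4% of Foregut and 4.85% of Endodermal Progenitor cells. Twist1 was found in 5.71% of Hepatocyte cells (3.91% to 8.01%) and 18.5% of Mesodermal Progenitor cells (15.2% to 22.3%). The share of Hepatocyte cells with Prrx1 was thus above those of CNS Neuron and the other 3 shallow types at the same depth, and its pooled level above that of the droplets. In F0_9 the Hepatocyte level of Prrx1, 3.42 on 71 UMIs, was close to the 3.08 of the droplets. Pooled, Meox1 (0.117) and Msx2 (0.0836) lay below both droplet sets. Prrx2 (0.945) and Msx1 (0.786) lay below droplets of under 100 UMIs only. Twist2, Meox2, Alx1 and Alx4 lay above both sets.

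Founder and F1 suspensions, the 2 generations of transgenic embryos, were then compared within each type, and none of the 10 genes was called. Counts summed per suspension and type were fitted with edgeR's quasi-likelihood test (Benjamini-Hochberg over all genes of a type, threshold 0.05), with 2 suspensions against 2. Of the 48 pairs of gene and type that could be tested (Meox1 and Msx2 were too low in Hepatocyte), 0 passed, and 12 had an unadjusted p under 0.05, as did 10.2% of all tests in the 5 types. Without the low-count filter 3 passed. They were Msx2 in Mesodermal Progenitor (background 2.52%), and Alx4 and Meox2 in Gut Mesenchyme/Amniotic Mesoderm (background 4%). The share of all genes called was 1.07% in Mesodermal Progenitor, 1.62% in Gut Mesenchyme/Amniotic Mesoderm, 1.16% in Chondrocyte, 0% in Myoblast/Cardiomyocyte (1049 genes at an unadjusted p under 0.05, and 36 called by DESeq2) and 0.0679% in Hepatocyte. F0_8, F0_9 and F1_1 each stand for 1 embryo and F1_mix for 2. Sex differed within each generation and was not a term in the fit. Litter and the handling of the founder eggs cannot be told apart from the groups.

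The limits were narrow for Prrx1 and Twist1 in Mesodermal Progenitor. The log2 difference of founders minus F1 for Prrx1 in Mesodermal Progenitor was 0.02 (95% interval -0.13 to 0.17, edgeR adjusted p = 0.96), and for Twist1 it was -0.09 (-0.27 to 0.10, adjusted p = 0.80). In Myoblast/Cardiomyocyte the interval for Prrx1 was wider (-0.45, -0.88 to -0.03, edgeR adjusted p = 0.51), as was that in Hepatocyte (-0.52, -1.04 to 0.00, edgeR adjusted p = 0.57). Msx2 in Mesodermal Progenitor was 0.135 and 0.173 in the founders and 0.345 and 0.238 in F1, a difference of -0.94 (-1.48 to -0.40) with an edgeR adjusted p of 0.12. Alx4 was 0.243 and 0.270 against 0.416 and 0.383 in Gut Mesenchyme/Amniotic Mesoderm (-0.65, -1.03 to -0.27, edgeR adjusted p = 0.11). The groups did not overlap in either case, and neither passed. Without F1_mix the Msx2 difference in Mesodermal Progenitor was -1.20. Msx1 in Chondrocyte differed by -1.09 (-2.14 to -0.05, edgeR adjusted p = 0.46). It was -3.22 without F0_9 and -1.5 without F1_mix, so its size rested on which suspensions were kept. In Myoblast/Cardiomyocyte, F0_8 had the lowest level of the 4 suspensions for Prrx1, Prrx2, Twist1, Msx1, Msx2, Alx1 and Alx4. Without F0_9 it is the lone founder there, and it carries the highest muscle marker sum.

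**Figure D5:**
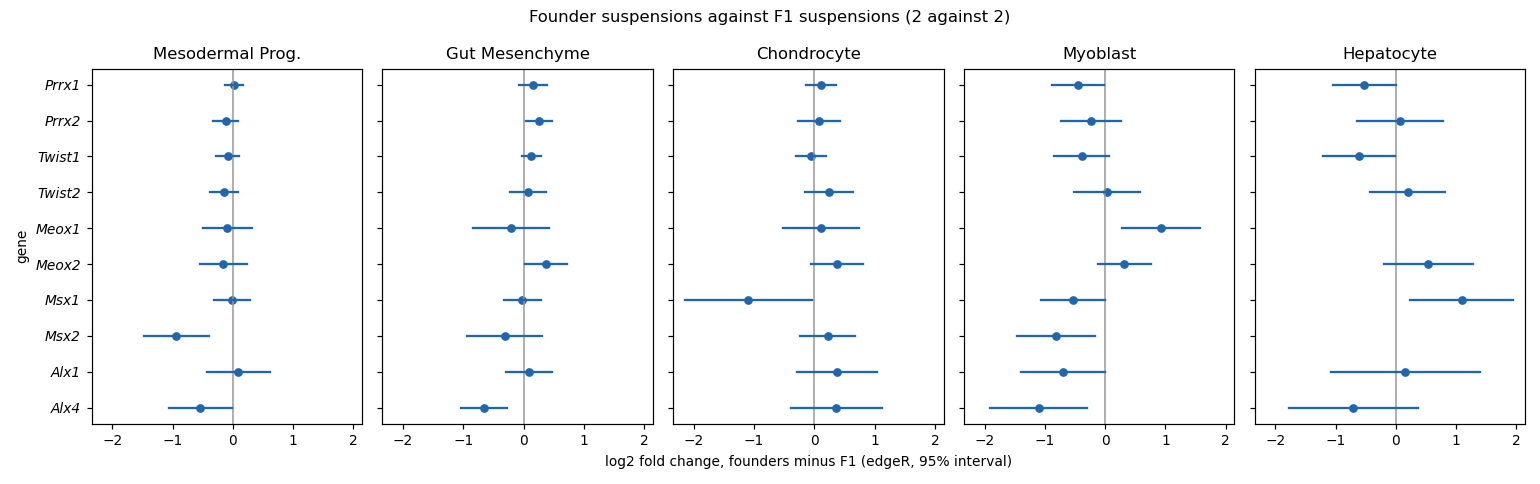
Log2 fold change of founders minus F1 for each gene in 5 annotated types, with 95% intervals from the edgeR fit; Meox1 and Msx2 were not tested in Hepatocyte. The intervals are narrow for Prrx1 in Mesodermal Progenitor (-0.13 to 0.17) and wide for Msx1 in Chondrocyte (-2.14 to -0.05).

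Genes of the positional and partner lists were called in the same fits, and whether they differed from the 10 in this was not tested. Of 11 posterior Hox genes, 7 were higher in founders in Gut Mesenchyme/Amniotic Mesoderm, where 114 of all 11099 genes were. Their list had a median log2 difference of 1.21 against -0.00204 over all genes tested. The 7 were Hoxa10, Hoxa11, Hoxa13, Hoxd10, Hoxd11, Hoxd12 and Hoxd13. Hoxd13, a factor of the digits and tail end, was 0.341 and 0.324 in founders and 0.00716 and 0.0661 in F1 (2.95, edgeR adjusted p = 0.00712). Hoxa10 was 1.32 and 1.09 against 0.523 and 0.515 (1.21, edgeR adjusted p = 0.00233). In Mesodermal Progenitor 2 of 11 were higher (Hoxd13 and Hoxa10), where 79 of all 10928 genes were. In Chondrocyte 1 of 7 tested was higher (Hoxd10), where 73 of all 9106 genes were. Of 20 other mesenchymal regulators in Gut Mesenchyme/Amniotic Mesoderm, 8 were lower in founders, where 66 of all 11099 genes were. Foxp1, Foxp2, Tcf21, Foxf1, Meis1 and Nr2f1 were among the 8, and Tbx15 was higher. In Mesodermal Progenitor 4 of 20 were lower (38 of all 10928 genes), with Meis1, Meis2 and Nr2f1 among them, and Shox2 was higher. In Chondrocyte Foxp2 and Osr1 were higher (2 of 20) and Hand1 lower (1 of 20, and 33 of all 9106 genes).

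The E protein Tcf4 was higher in founders in Mesodermal Progenitor (10.8 and 10.7 against 7.48 and 8.73, 0.40, edgeR adjusted p = 0.0172) and in Gut Mesenchyme/Amniotic Mesoderm (0.48, adjusted p = 0.00349). No Id gene was called in the 5 types, and of the transition factors Zeb2 was higher in Mesodermal Progenitor (0.74, edgeR adjusted p = 0.0314). Of 10 matrix genes, Lum and Col1a1 were higher in Mesodermal Progenitor and Dcn and Col1a1 in Chondrocyte, where Vim was lower. Limb bud genes were higher for Shox2 and Pitx1 in Mesodermal Progenitor (2 of 9) and for Lhx9 and Lmx1b in Gut Mesenchyme/Amniotic Mesoderm (2 of 9). In Chondrocyte, Lhx2 was lower (1 of 6 tested), where 33 of all 9106 genes were. Among somite genes, Uncx and Pax9 were higher in Mesodermal Progenitor (2 of 7 tested) and Pax1 in Chondrocyte (1 of 5 tested). The numbers of all genes higher in these types are those given beside the posterior Hox genes. The cranial list had no common direction over the types. Its medians were -0.98 in Myoblast/Cardiomyocyte, -0.71 in Chondrocyte (3 genes tested) and -0.38 in Gut Mesenchyme/Amniotic Mesoderm. They were 0.22 in Mesodermal Progenitor and 0.05 in Hepatocyte, where the medians of all genes tested were 0.00201 and -0.00763. Of the anterior Hox genes, 0 were called by edgeR in the 5 types. In these sums, fewer cells from a body region and less RNA of its genes per cell cannot be told apart.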

How the data were processed

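Single-cell gene expression was measured in 4 suspensions of E11.5 mouse embryos, pooled in 1 droplet library (10x 3′ chemistry). The deposited matrices hold UMI counts that the authors made by aligning reads to mm10 with EGFP added, for which the headers name Cell Ranger 7.2.0 (the study's methods name this and another release). Whether intronic reads were counted is not stated. The counts were used as deposited, without correction for free RNA and with no further doublet caller, since the authors had removed doublets with DoubletFinder. Suspension and cell type came from the authors' cell table, of which 20 other columns were not used. Values of p over suspensions measure the spread between these 4 suspensions only.

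Levels are summed UMIs per 10000 gene UMIs, with exact Poisson 95% intervals. Shares carry exact Clopper-Pearson intervals, and a share of 0 is given with its upper limit. Shallow types have a median depth under that of all cells divided by 3. Thinning drew 5000 or 500 UMIs per cell without replacement. Founders and F1 were compared with edgeR 4.0.16 (R 4.3.3) in 5 types, and with DESeq2 1.42.0 as an alternative. The test was tested on simulated data. Other values used Python 3.11.15, numpy 2.4.6, pandas 2.3.3, scipy 1.17.1 and matplotlib 3.10.9. Gene lengths and promoters came from RefSeq (GRCm38.p6). Genes named are the 10 chosen, the 3 most like each, and, of each list, those called and the 4 of highest level in mesenchyme, with the markers. The 2 neural tube lists were added after levels had been seen, and the 10 genes and all lists were chosen with earlier results of these data known. Some genes of the lists are not reported here.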

Additional observations from a re-analysis of the deposited data

Results flagged for a closer look

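In groups of 4 suspensions, a value was picked out when the gap to its nearest neighbour, divided by the range, exceeded Dixon's 95% critical value. Of 48 gene and cell type groups examined, 2 were picked out, which is close to the 1 in 20 that chance gives. Prrx1 in Gut Mesenchyme/Amniotic Mesoderm was 4.87 in F0_8, above 3.79 to 3.88 in the others. Twist1 in Myoblast/Cardiomyocyte was 2.97 in F0_8, below 4.94 to 5.26 in the others.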

How the results depend on the processing

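No paired analysis was possible because the suspensions share no replicate number between the generations. The number of genes called between founders and F1 moved most. With DESeq2 it was 41 in Mesodermal Progenitor (117 with edgeR), 115 in Gut Mesenchyme/Amniotic Mesoderm (180), 36 in Chondrocyte (106), 36 in Myoblast/Cardiomyocyte (0) and 2 in Hepatocyte (4). Without the low-count filter it was 401, 644, 0, 133 and 89 in the same order, and with cells under 5% mitochondrial UMIs it was 62 in Chondrocyte (Hepatocyte had too few such cells for a fit). Leaving out 1 suspension gave 37 to 325, 59 to 320, 57 to 286, 0 to 358 and 0 to 126 (lowest in the first 3 types without F0_8 and highest without F1_mix, highest in Myoblast/Cardiomyocyte without F0_9 and in Hepatocyte without F1_1), where a lone suspension is assumed to vary like the others. Of the 48 pairs of gene and type, 3 were called without the filter (Msx2 in Mesodermal Progenitor, Alx4 and Meox2 in Gut Mesenchyme/Amniotic Mesoderm). The outcome for the 48 pairs also moved when F0_9 or F1_mix was left out, where 1 suspension stands for its generation. Genes with ranges apart numbered 3 to 6 between Mesodermal Progenitor and Chondrocyte (3 with all), and 1 to 5 between Gut Mesenchyme/Amniotic Mesoderm and Chondrocyte (1 with all). With 1 suspension left out, no share of all genes is given beside these counts. Levels outside mitochondrial genes moved by more than 1 SD in 2 of 50 cases, as did the mean of cell levels, and levels in cells under 5% mitochondrial in 4, all in the 15 such Hepatocyte cells, where Msx1 turned to lie above Mesodermal Progenitor (3.18) and Twist2, Meox2 and Alx4 below it (0.859, 1.20 and 0.258). Co-detection ratios at 2000 UMIs stayed on the same side of 1 for the 5 paralogue pairs, although Meox1 with Meox2 fell to 0.769 in F0_9, and pairs of a Meox with an Msx or Alx gene below 1 in all suspensions fell from 6 to 3 of 8. By Spearman correlation, 2 of the 30 nearest genes were kept. The cause of these moves was not tested. Droplet levels moved for 8 of 10 genes with droplets of under 100 UMIs. Shares of cells at 2000 and 10000 UMIs moved for all 10 genes, as fewer or more UMIs were drawn. Low counts limit Meox1, Msx2 and Alx4 most.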
